A study of Mus musculus with 6 samples.

Results

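The genes described here are 10 members of 3 families of calcium- or sugar-binding proteins: the S100 genes S100a4, S100a6, S100a10, S100a11 and S100a13, the annexin genes Anxa1, Anxa2, Anxa5 and Anxa6, and the galectin gene Lgals1. They were taken by name from a table of 23420 gene rows, and all 10 were present and passed the filter on low values. The table holds 6 libraries, 3 of CD4SP and 3 of CD8SP induced T (iT) cells, each made from 1000 sorted splenic cells. All 6 came from the same kind of animal. The cells descended from iR9 pluripotent stem cells of the C57BL/6 background, which carry a doxycycline-inducible Runx1-p2a-Hoxa9 cassette in the Rosa26 locus. Haematopoietic progenitors made from them were transplanted into irradiated B-NDG mice, a NOD strain with the Prkdc scid mutation and without Il2rg. Such hosts make no T, B or NK cells of their own but keep their myeloid and stromal cells. The sort kept CD45.2+ cells of donor type that were Ter119- and CD11b-. In the labels the groups differ only in the sorted population, CD4 or CD8 single positive, and every library carries the transgene. The labels do not give the day of sorting or the amplification batch. There is no library from ordinary splenic T cells and none without the cassette. The study describes the libraries as biological replicates, but the labels only number them 1 to 3 in each population and do not say whether they came from separate mice, so p-values measure the spread between these libraries, which may be technical.

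S100 proteins are small EF-hand calcium sensors that act as dimers inside the cell and, for some members, outside it. Annexins bind acidic phospholipids when calcium is present and take part in membrane repair, vesicle traffic and the link between membrane and cortical actin. The families meet in fixed complexes: S100A10 binds annexin A2 and S100A11 binds annexin A1. Galectin-1, the product of Lgals1, binds galactose-containing glycans on surface proteins such as CD7, CD43 and CD45 and can trigger apoptosis of activated T cells. In T cells, S100a4, S100a6, S100a10, S100a11, Anxa1, Anxa2 and Lgals1 are widely known as genes of antigen-experienced, motile and tissue-homing cells.

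The 5 S100 genes all lie on mouse chromosome 3 (GRCm38, GENCODE M21). S100a13 (chr3:90514435-90524581), S100a4 (chr3:90603771-90606045) and S100a6 (chr3:90612882-90624181) sit in a cluster of 11 S100 genes spanning 185 kb. S100a11 (chr3:93520488-93526287) and S100a10 (chr3:93555080-93564643) are neighbours 28792 bp apart, 2825 kb beyond that cluster. Anxa5 is on the same chromosome (chr3:36448923-36475894), Anxa1 is at chr19:20373428-20390944, Anxa2 at chr9:69453620-69491795, Anxa6 at chr11:54979108-55033445 and Lgals1 at chr15:78926725-78930465. RefSeq promoter windows (GRCm38.p6, 250 bases before to 50 after the start) matched 7 of the 10 genes, and S100a10, Anxa6 and Lgals1 were not matched. The windows below set a gene called between the populations beside a relative that was not: S100a4 beside its neighbour S100a6, and Anxa1 beside Anxa2. They are written 5′ to 3′ on the strand of the gene, and capitals mark matches on either strand to the motif TGTGGT of RUNX factors, the motif TGANTCA of AP-1, the motif CACCC of KLF factors, the GC box GGGCGG or the TATA box TATAAA.
S100a4: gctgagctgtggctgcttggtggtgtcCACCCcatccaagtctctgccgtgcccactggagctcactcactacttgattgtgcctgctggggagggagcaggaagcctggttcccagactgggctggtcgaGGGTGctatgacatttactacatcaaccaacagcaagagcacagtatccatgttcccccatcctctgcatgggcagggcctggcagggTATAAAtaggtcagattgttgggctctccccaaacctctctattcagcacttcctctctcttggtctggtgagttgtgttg
S100a6: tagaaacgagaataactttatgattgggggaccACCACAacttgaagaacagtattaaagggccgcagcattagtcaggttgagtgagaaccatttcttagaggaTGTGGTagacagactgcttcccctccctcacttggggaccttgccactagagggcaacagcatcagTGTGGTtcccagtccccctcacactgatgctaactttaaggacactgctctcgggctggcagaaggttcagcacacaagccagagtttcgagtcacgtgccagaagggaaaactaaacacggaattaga
Anxa1: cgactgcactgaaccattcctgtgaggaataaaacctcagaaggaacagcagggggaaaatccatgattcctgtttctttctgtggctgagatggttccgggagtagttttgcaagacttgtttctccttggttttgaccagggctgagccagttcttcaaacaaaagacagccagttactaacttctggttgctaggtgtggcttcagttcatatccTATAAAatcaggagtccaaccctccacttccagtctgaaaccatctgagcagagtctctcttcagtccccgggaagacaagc
Anxa2: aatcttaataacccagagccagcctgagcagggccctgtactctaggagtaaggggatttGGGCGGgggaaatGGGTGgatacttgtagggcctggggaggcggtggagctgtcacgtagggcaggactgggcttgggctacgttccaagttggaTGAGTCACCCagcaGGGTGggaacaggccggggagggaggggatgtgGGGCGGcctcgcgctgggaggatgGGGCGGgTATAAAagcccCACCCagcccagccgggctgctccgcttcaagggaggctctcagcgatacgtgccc

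The windows are chr3:90603520-90603819 on the plus strand for S100a4, chr3:90612644-90612943 on the plus strand for S100a6, chr19:20390622-20390921 on the minus strand for Anxa1 and chr9:69453433-69453732 on the plus strand for Anxa2. The neighbours S100a4 and S100a6 shared no match. S100a4 held a TATA box with its first base at -31 from the start and a KLF motif on the plus strand at -223 and on the minus strand at -119. S100a6 held a RUNX motif at -217 on the minus strand and at -145 and -79 on the plus strand, and no TATA box. The Anxa1 window held a single match, a TATA box at -32. The Anxa2 window held a TATA box at -17, 3 GC boxes, 4 KLF motifs and an AP-1 motif at -95 whose last bases overlap a KLF motif at -90. Of 32851 RefSeq windows of this length, 16.8% held a RUNX motif, 7.81% an AP-1 motif, 57.5% a KLF motif, 35.7% a GC box and 13.6% a TATA box. The Anxa2 window had 63.7% GC and 13 CpG, against 47.3% and 3 for Anxa1, 55.3% and 2 for S100a4, and 49.3% and 6 for S100a6. The medians over all windows were 52.7% GC and 7 CpG. A match is a string of letters and not a binding site.

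The 10 genes were among the more abundant transcripts of iT cells, with the exception of Anxa1. Values are TPM, the share of transcripts, which are scaled to transcript length. The libraries still differed by transcript length, as described below, so levels of short and long transcripts compare only roughly. The 10 genes summed to 12671, 16246 and 13612 TPM in the CD4SP libraries 1, 2 and 3. The sums were 9117, 8751 and 9806 TPM in the CD8SP libraries 1, 2 and 3. These sums are 1.27%, 1.63% and 1.36% of all TPM in CD4SP, against 0.913%, 0.877% and 0.983% in CD8SP, and the ranges of the populations did not overlap. The S100 genes of the set summed to 9571 to 12787 TPM in CD4SP and to 5939 to 6903 TPM in CD8SP, without overlap. Its annexin genes summed to 1309, 927 and 1347 TPM in CD4SP, against 1572, 1244 and 1033 TPM in CD8SP, with overlap. S100a4 ranked between 33 and 42 among all rows in the CD4SP libraries and between 92 and 102 in the CD8SP libraries. S100a10 ranked between 50 and 53 in CD4SP and between 85 and 91 in CD8SP. Anxa1 was far lower, at ranks 4016 to 5406 in CD4SP and 8352 to 10203 in CD8SP.

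**Figure D1:**
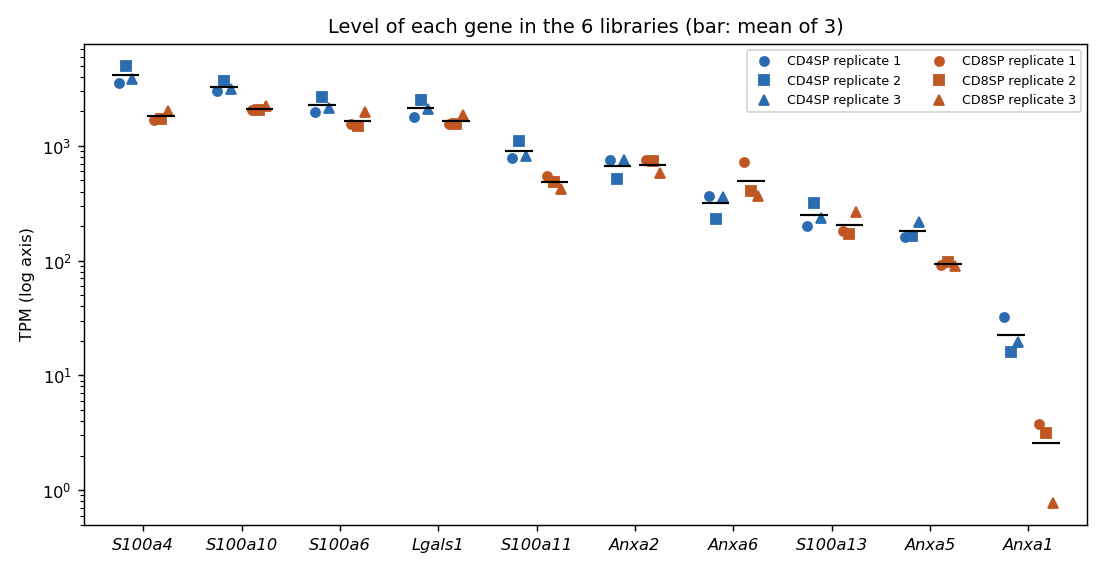
Level of each of the 10 genes in TPM (log axis) in the 6 libraries, with CD4SP in blue, CD8SP in orange, a symbol for each replicate number and a bar at the mean of 3. All 3 CD4SP libraries lie above all 3 CD8SP libraries for S100a4, S100a10, S100a6, S100a11, Anxa5 and Anxa1, and the populations overlap for Lgals1, Anxa2, Anxa6 and S100a13.

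The comparison of CD4SP with CD8SP asks which of these genes separate the helper from the cytotoxic lineage among iT cells. It was made with limma on log2(TPM + 1) over 10476 genes, and a gene was called at a Benjamini-Hochberg adjusted p under 0.05 with more than a 2-fold difference on that scale. S100a4 and Anxa1 were called, both higher in CD4SP. That is 2 of 10 genes, where 9.73% of all tested genes were called, 7.92% as higher in CD4SP and 1.80% as higher in CD8SP. In limma 0 of the 10 genes were called higher in CD8SP, and of the 7 with an unadjusted p under 0.05, which 37.1% of all tested genes had, none was lower in CD4SP. Without the fold limit, S100a10, S100a11 and Anxa5 joined them, giving 5 of 10, all higher in CD4SP. Of all genes 20.8% passed in this way, 17.6% as higher in CD4SP and 3.23% as higher in CD8SP. All 3 CD4SP libraries lay above all 3 CD8SP libraries for 6 of the 10 genes, against 36.6% of all genes. The median log2 difference was 0.54 over the 10 genes and 0.28 over all tested genes, so that the bulk of the transcriptome already leaned towards CD4SP. In bulk RNA, fewer cells expressing a gene and less RNA per cell cannot be told apart.

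**Figure D2:**
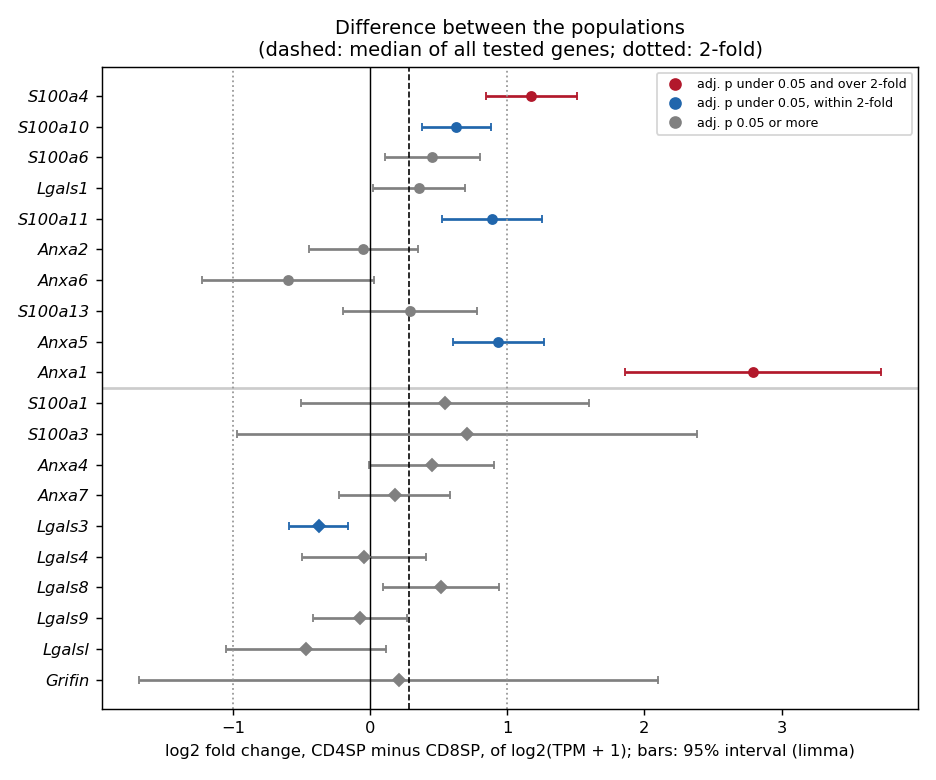
Log2 difference, CD4SP minus CD8SP, of log2(TPM + 1) with its 95% interval from limma, for the 10 genes (circles, above the grey line) and the 10 tested other members of the 3 families (diamonds). Red marks genes past both thresholds (S100a4 and Anxa1), blue marks an adjusted p under 0.05 within 2-fold (S100a10, S100a11, Anxa5 and Lgals3), and the dashed line is the median of all tested genes, 0.28.

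S100a4, which codes for a calcium sensor that binds non-muscle myosin IIA and promotes cell motility, was the most abundant of the 10 genes in CD4SP iT cells. It was at 3574, 4994 and 3806 TPM in CD4SP, and at 1681, 1732 and 2020 TPM in CD8SP. Every CD4SP library was above every CD8SP library, and CD4SP replicate 2 was the highest of the 6. The means were 4125 ± 761 and 1811 ± 183 TPM (SD, n = 3 each), and the log2 difference in limma was 1.18 with an SE of 0.15 (95% interval 0.84 to 1.51, adjusted p = 0.00125). Relative to the median of all genes it was 0.89. When libraries were rescaled by the median of ratios, which brings the median of all genes to 0.00, the difference was 0.87 (limma adjusted p = 0.0304) and below the 2-fold limit. Part of the S100a4 transcript is identical over 302 nt to a transcript of the overlapping gene Gm42674, which has no row in the table.

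S100a6, which codes for calcyclin, starts close beyond S100a4 on the same strand with only S100a5 between them. It was at 1995, 2682 and 2151 TPM in CD4SP, and at 1540, 1483 and 1960 TPM in CD8SP. The lowest CD4SP library was just above the highest CD8SP library. Its log2 difference of 0.45 (SE 0.15, 95% interval 0.11 to 0.80) did not pass in limma (adjusted p = 0.0662), and it was 0.17 above the median of all genes. Under median-of-ratios rescaling it was 0.15 (limma adjusted p = 0.698). It passed within the 2-fold limit without CD8SP replicate 3 (0.58, limma adjusted p = 0.0465), with quantile normalization (0.54, limma adjusted p = 0.0259) and with library weights (0.47, limma adjusted p = 0.00898). The step between the neighbours was thus unequal in the populations. S100a4 exceeded S100a6 by 0.84, 0.90 and 0.82 log2 units in the CD4SP libraries and by 0.13, 0.22 and 0.04 in the CD8SP libraries. The groups did not overlap, and the mean gap was 0.85 ± 0.04 against 0.13 ± 0.09 (SD, n = 3 each), a difference of 0.72. An exact two-sided permutation of the 6 libraries gave p = 0.1, the smallest that 3 against 3 libraries allow. Leaving out any single library kept the difference between 0.68 and 0.77. As a ratio within a library, this gap does not depend on how libraries are scaled.

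S100a5, between these genes, was listed at 0 in all 6 libraries, as were S100a14, S100a7a, S100a8 and S100a9 of the same cluster. S100a8 and S100a9 code for the calprotectin subunits of neutrophils and monocytes. In all, 6 of the 8 cluster genes outside the set stayed under 0.5 TPM in every library. S100a3, next to S100a4 on its other side, ranged from 0 to 6.07 TPM. S100a1, which lies 42 bp from S100a13 on the opposite strand, ranged from 4.68 to 26.4 TPM with overlapping populations.

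**Figure D3:**
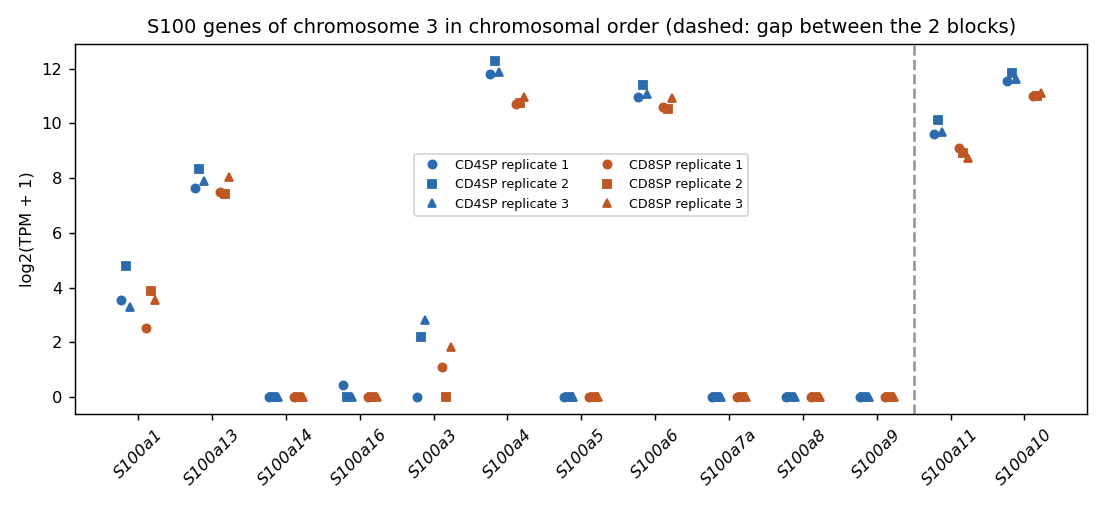
Level of 13 S100 genes of chromosome 3 as log2(TPM + 1), in chromosomal order, with a point for each library (CD4SP in blue, CD8SP in orange). S100a4 and S100a6 stand above 10 log2 units while S100a5 between them is listed at 0 in every library; the dashed line marks the gap before S100a11 and S100a10, where CD4SP libraries lie above CD8SP libraries.

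S100a10 codes for p11, the light chain of the annexin A2 tetramer, which carries channels and plasminogen receptors to the plasma membrane. It was at 3019, 3688 and 3158 TPM in CD4SP, and at 2056, 2070 and 2234 TPM in CD8SP. The populations did not overlap and the CD8SP libraries were close together, at 2120 ± 98.7 TPM (SD, n = 3). The log2 difference was 0.63 (SE 0.11, 95% interval 0.38 to 0.88, limma adjusted p = 0.00593), within the 2-fold limit, and 0.34 relative to the median of all genes. Under median-of-ratios rescaling it was 0.32 (limma adjusted p = 0.247). S100a10 was the highest of the 10 genes in CD8SP iT cells.

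Its partner Anxa2, which bridges membranes and organises cortical actin, was at 747, 516 and 749 TPM in CD4SP, and at 751, 740 and 576 TPM in CD8SP. One library of each population, CD4SP replicate 2 and CD8SP replicate 3, was low, and the populations overlapped. The log2 difference was -0.05 (SE 0.17, 95% interval -0.45 to 0.35, limma adjusted p = 0.861), an interval that leaves out a 2-fold difference in either direction. Under median-of-ratios rescaling it was -0.35 (limma adjusted p = 0.0973). Its sign turned to 0.13 without CD4SP replicate 2, to 0.02 without CD8SP replicate 1 and to 0.01 without CD8SP replicate 2. The Anxa2 exons overlap those of an antisense gene, Gm16144, and whether counting used strand is not given in the sources used here. S100a10 exceeded Anxa2 by 2.01, 2.84 and 2.07 log2 units in CD4SP and by 1.45, 1.48 and 1.95 in CD8SP. The means were 2.31 ± 0.46 and 1.63 ± 0.28 (SD, n = 3 each), a difference of 0.68 without overlap (exact two-sided permutation p = 0.1). Without CD4SP replicate 2 the difference was 0.41 and the exact permutation p was 0.2.

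S100a11, which codes for calgizzarin, the partner of annexin A1, was at 782, 1106 and 821 TPM in CD4SP, and at 548, 481 and 423 TPM in CD8SP. All CD4SP libraries were above all CD8SP libraries. The log2 difference was 0.89 (SE 0.16, 95% interval 0.53 to 1.25, limma adjusted p = 0.00659), within the 2-fold limit, and 0.60 relative to the median of all genes. Under median-of-ratios rescaling it was 0.58 (limma adjusted p = 0.0897). Processed pseudogenes Gm12854 and Gm7665 match it at 99.0% and 98.7% identity over 297 nt and have no row in the table, so how their reads were split is uncertain.

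S100a13, which takes part in the non-classical export of FGF1 and interleukin-1 alpha, was at 200, 318 and 237 TPM in CD4SP, and at 181, 171 and 265 TPM in CD8SP. The populations overlapped, with CD4SP replicate 2 and CD8SP replicate 3 the high libraries. The log2 difference was 0.29 (SE 0.21, 95% interval -0.20 to 0.78, limma adjusted p = 0.352), at the median of all genes, and it turned to -0.01 under median-of-ratios rescaling. It was 0.11 without CD4SP replicate 2, 0.17 without CD8SP replicate 2, 0.44 without CD4SP replicate 1 and 0.49 without CD8SP replicate 3, and did not pass in any of these.

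Anxa1, which codes for the glucocorticoid-induced annexin that acts through formyl peptide receptors, showed the widest difference of the 10 genes. It was at 32.3, 15.98 and 19.7 TPM in CD4SP, and at 3.78, 3.16 and 0.771 TPM in CD8SP. The lowest CD4SP library was above the highest CD8SP library by a wide margin. The means were 22.7 ± 8.55 and 2.57 ± 1.59 TPM (SD, n = 3 each), a ratio of 8.81. On the log2(TPM + 1) scale, which understates the change of low genes, the difference was 2.79 (SE 0.41, 95% interval 1.86 to 3.73, limma adjusted p = 0.00282). It was 3.29 with a pseudocount of 0.1 and 1.85 with a pseudocount of 5, and it was called under all 18 refits. Its percentile among the differences of all tested genes was 99.4. The myeloid gene Lyz2 (lysozyme 2) moved with it, at 30.9, 17.1 and 18.3 TPM in CD4SP, against 8.33, 6.87 and 3.64 TPM in CD8SP (log2 difference 1.68, limma adjusted p = 0.00872). Myeloid cells, which the CD11b gate was set to leave out, express Anxa1 at high level. Of the 13 myeloid markers listed, 11 had rows and 6 of these stayed under 1 TPM in every library, with S100a8, S100a9 and Mpo listed at 0 and Csf1r, Itgam and Cd14 at no more than 0.894 TPM. The summed level of the list was 527 to 584 TPM in CD4SP, against 305 to 411 TPM in CD8SP, mostly Cst3. Cd68 was higher in CD8SP (log2 difference -2.41, limma adjusted p = 0.0127). Tyrobp and Fcer1g did not pass, with log2 differences of 0.14 and -0.59 (limma adjusted p = 0.749 and 0.470). The part of myeloid RNA in the Anxa1 difference was not tested.

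The formyl peptide receptor gene Fpr1 was listed at 0 in all 6 libraries, and Fpr2 in all but CD4SP replicate 1 (1.19 TPM). S100a11 exceeded Anxa1 by 4.56, 6.03 and 5.31 log2 units in CD4SP and by 6.85, 6.86 and 7.90 in CD8SP. These groups did not overlap. The mean gaps were 5.30 ± 0.74 and 7.201 ± 0.61 (SD, n = 3 each), a difference of -1.90 (exact two-sided permutation p = 0.1). Its size depended on the pseudocount, from -2.40 at 0.1 to -0.97 at 5.

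Anxa5 codes for the annexin used as a probe for phosphatidylserine on dying cells. It was at 160, 164 and 217 TPM in CD4SP, and at 92.2, 97.2 and 89.4 TPM in CD8SP. The populations stood clear of each other, and the CD8SP libraries varied by only 3.95 TPM (SD, n = 3). The log2 difference was 0.94 (SE 0.14, 95% interval 0.61 to 1.27, limma adjusted p = 0.00345) and 0.65 relative to the median of all genes, just inside the 2-fold limit. Anxa5 passed that limit only without CD4SP replicate 1, at 1.01 (limma adjusted p = 0.00861). Its adjusted p was under 0.05 in all 18 refits, including median-of-ratios rescaling (0.63, adjusted p = 0.0129).

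Anxa6, the largest annexin, which binds cholesterol-rich membranes, was at 369, 231 and 361 TPM in CD4SP, and at 725, 404 and 367 TPM in CD8SP. CD8SP replicate 1 was the high library and CD4SP replicate 2 the low one, and CD8SP replicate 3 lay within the CD4SP range. The log2 difference of -0.60 (SE 0.28, 95% interval -1.23 to 0.03) did not pass in limma (adjusted p = 0.153). It was -0.88 relative to the median of all genes, at percentile 5.30 of all differences. Under median-of-ratios rescaling it was -0.90 (limma adjusted p = 0.0417), below the 2-fold limit, and it was -0.29 without CD8SP replicate 1 and -0.38 without CD4SP replicate 2. Anxa6 and Anxa2 thus had no called difference, but their gap was ordered by population. Anxa6 was below Anxa2 by -1.01, -1.16 and -1.05 log2 units in CD4SP and by -0.05, -0.87 and -0.65 in CD8SP. The difference of the means was -0.55 (exact two-sided permutation p = 0.1), or -0.31 without CD8SP replicate 1. The p-values of the 4 gene pairs compared in this way were 0.1 after adjustment over the 4. How often other gene pairs separate the populations was not computed, and S100a4 and Anxa1 in these pairs were themselves called. Of single genes, 36.6% had all 3 CD4SP libraries above all 3 CD8SP libraries, and 6.61% the reverse.

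**Figure D4:**
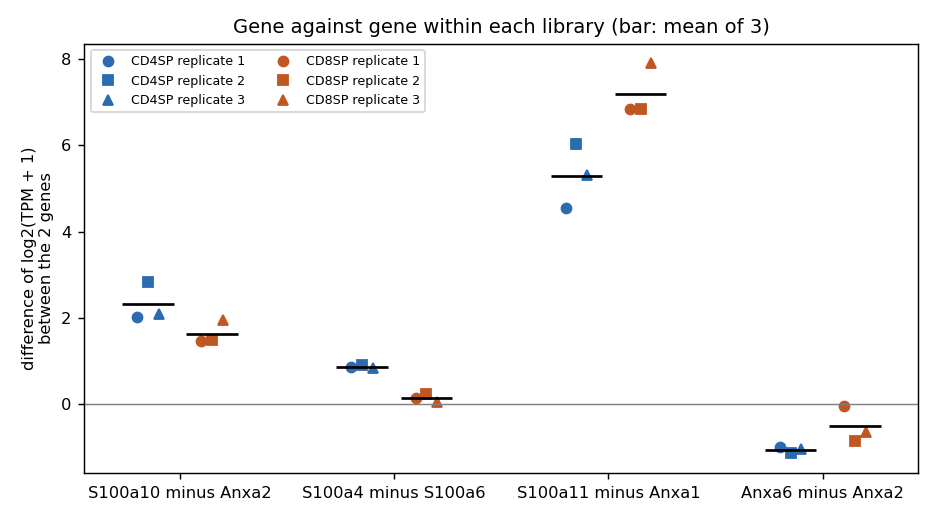
Difference of log2(TPM + 1) between 2 genes within each library for 4 pairs, with CD4SP in blue, CD8SP in orange and a bar at the mean of 3. The populations do not overlap in any of the 4 pairs, but the share among other gene pairs was not computed. The CD8SP libraries are lower for S100a10 minus Anxa2 and S100a4 minus S100a6, and higher for S100a11 minus Anxa1 and Anxa6 minus Anxa2.

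Lgals1 was at 1790, 2532 and 2092 TPM in CD4SP, and at 1539, 1568 and 1871 TPM in CD8SP. CD8SP replicate 3 lay above CD4SP replicate 1, so the populations overlapped. The log2 difference was 0.36 (SE 0.15, 95% interval 0.02 to 0.69, limma adjusted p = 0.116), and 0.07 relative to the median of all genes. It was 0.05 under median-of-ratios rescaling and 0.23 without CD4SP replicate 2, and with library weights its adjusted p in limma was 0.0252.

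Within CD4SP the mean levels in TPM ran from S100a4 through S100a10 (3289), S100a6 (2276), Lgals1 (2138), S100a11 (903), Anxa2 (671), Anxa6 (321), S100a13 (252) and Anxa5 (180) to Anxa1 (22.7). The library ranges of neighbours in this order were separate in 5 of 9 steps, and did not separate S100a4 from S100a10, S100a6 from Lgals1, Anxa6 from S100a13 or S100a13 from Anxa5. Within CD8SP the order was S100a10 (2120), S100a4 (1811), S100a6 (1661), Lgals1 (1659), Anxa2 (689), Anxa6 (498), S100a11 (484), S100a13 (206), Anxa5 (92.9) and Anxa1 (2.57). Neighbours were again separate in 5 of 9 steps, and not within S100a4, S100a6 and Lgals1 nor within Anxa2, Anxa6 and S100a11. By these means S100a11 held a place above Anxa2 and Anxa6 in CD4SP and below them in CD8SP, but without CD8SP replicate 1, where Anxa6 was at 725 TPM, S100a11 came before Anxa6 in CD8SP as well. These orders are descriptions with no test.

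Few of the other genes of the 3 families were measured above the filter. Of 29 listed (11 S100, 8 annexin and 10 galectin genes), 13 were listed at 0 in all libraries and 10 were tested. In limma 0 of the 10 were called (9.73% of all genes), 2 had an unadjusted p under 0.05 (37.1% of all genes), and their median log2 difference was 0.20 against 0.28 for all genes. Lgals3, which codes for the chimeric galectin that forms lattices on T cell glycoproteins, was at 513, 500 and 498 TPM in CD4SP, against 655, 673 and 631 TPM in CD8SP. All CD8SP libraries were above all CD4SP libraries, which 6.61% of all genes show. Its log2 difference was -0.37 (SE 0.09, limma adjusted p = 0.0260), within the 2-fold limit. Lgals1 and Lgals3 thus had log2 differences of opposite sign, of which that of Lgals1 did not pass. Lgals9, which codes for a tandem-repeat galectin that binds TIM-3, was at 301 to 417 TPM with overlapping populations (log2 difference -0.07, 95% interval -0.41 to 0.27). Lgals8 was at 52.0, 35.2 and 36.8 TPM in CD4SP, against 30.5, 28.6 and 25.5 TPM in CD8SP, without overlap, and did not pass in limma (log2 difference 0.52, adjusted p = 0.0792). Anxa4 was at 10.99 to 15.7 TPM in CD4SP, against 9.37 to 10.3 TPM in CD8SP (log2 difference 0.45, limma adjusted p = 0.139). Anxa7 was at 57.4 to 95.6 TPM with overlap, and Anxa3, Anxa8, Anxa10 and Anxa13 were listed at 0 throughout.

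Among 16 listed binding partners and receptors of these proteins, 11 were tested, 1 was called with a higher level in CD4SP (7.92% of all genes) and 1 with a higher level in CD8SP (1.80% of all genes). Cd44, the hyaluronan receptor and a marker of antigen-experienced T cells, was at 117, 94.5 and 130 TPM in CD4SP, against 52.9, 47.6 and 51.0 TPM in CD8SP (log2 difference 1.15, limma adjusted p = 0.00157). Cd7, a receptor for galectin-1, was the reverse, at 49.2, 42.1 and 35.1 TPM in CD4SP, against 122, 140 and 181 TPM in CD8SP (log2 difference -1.78, limma adjusted p = 0.000530). The galectin-1 counter-receptors Spn (CD43) and Cd2 were higher in CD4SP within the 2-fold limit, with log2 differences of 0.76 and 0.58 (limma adjusted p = 0.00429 and 0.00609). Ptprc (CD45) ranged from 23.7 to 71.7 TPM in CD4SP alone. Myh9, the heavy chain of non-muscle myosin IIA, had a log2 difference of 0.28 (95% interval -0.12 to 0.69), and Ahnak, a scaffold that binds the S100A10-annexin A2 tetramer, one of 0.45 (95% interval -0.01 to 0.90).

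Glycosyltransferases build or cap the glycans that galectins bind. Of 7 listed, 6 were tested and 3 were called, all higher in CD4SP, where 7.92% of all genes were called in that direction. All 6 had every CD4SP library above every CD8SP library, as 36.6% of all genes did. St6gal1, which adds the alpha-2,6 sialic acid that masks galectin-1 ligands, was at 44.6, 37.4 and 40.8 TPM in CD4SP, against 7.19, 8.22 and 8.32 TPM in CD8SP (log2 difference 2.23, limma adjusted p = 8.5e-05). St3gal1, the alpha-2,3 sialyltransferase of core 1 O-glycans, had a log2 difference of 1.25 (limma adjusted p = 0.00234). Gcnt1, the core 2 branching enzyme whose product galectin-1 recognises on CD43, was low, at 4.505 to 5.84 TPM in CD4SP, against 1.35 to 1.64 TPM in CD8SP (log2 difference 1.34, limma adjusted p = 0.00598). Mgat1, Mgat2 and B4galt1 did not pass, with log2 differences of 0.20, 0.44 and 0.21 and limma adjusted p = 0.354, 0.0594 and 0.245.

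Of 18 genes listed for T cell residence, migration and activation, all were tested and 3 were called, higher in CD4SP (7.92% of all genes): Il2ra, the interleukin-2 receptor alpha chain (log2 difference 3.37), Ikzf2, which codes for Helios (2.79), and Itgae, the alpha E integrin (1.32). Vim, the intermediate filament gene vimentin, and Emp3 were higher within 2-fold (0.62 each, limma adjusted p = 0.0214 and 0.0160). Crip1, often found with S100a4 and S100a6 in effector cells, had a log2 difference of 0.36 (limma adjusted p = 0.134), and Itgb1 of -0.03 (limma adjusted p = 0.880). Foxp3, the regulatory T cell factor, was at 142, 6.56 and 167 TPM in CD4SP, against 7.48, 7.48 and 10.05 TPM in CD8SP. Its difference did not pass in limma (adjusted p = 0.1005). In CD4SP replicate 2, where Foxp3 was low, Il2ra and Ikzf2, also high in regulatory T cells, were at 92.0 and 35.6 TPM, against 95.7 and 44.9 TPM in replicate 1 and 82.1 and 48.3 TPM in replicate 3. That library had the highest S100a4, S100a6, S100a10, S100a11, S100a13 and Lgals1 of the 6. The part of regulatory T cells in these levels was not tested.

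Libraries of 1 population also differed among themselves. In CD4SP replicate 2, the 6 genes whose longest annotated transcript is at most 800 nt, the 5 S100 genes and Lgals1, were all above the mean of the other 2 CD4SP libraries, by 0.26 (S100a10) to 0.54 (S100a13) log2 units. In the same library the 4 annexin genes, with transcripts of 1674 to 2489 nt, were all below it, at -0.19 for Anxa5, -0.54 for Anxa2, -0.63 for Anxa1 and -0.66 for Anxa6. All genes with a mean of at least 10 TPM showed the same order in that library, with a median deviation of 0.32 for transcripts up to 800 nt (231 genes), -0.04 up to 1600 nt (878 genes), -0.24 up to 3200 nt (2426 genes) and -0.29 beyond (2834 genes). In CD8SP replicate 3, S100a4, S100a6, S100a13 and Lgals1 stood 0.24 to 0.59 above and Anxa1, Anxa2 and Anxa6 from -0.37 to -1.33 below the other 2 CD8SP libraries, while the short S100a11 was at -0.28. The medians by length there were 0.08, -0.12, -0.16 and -0.12. Between the populations the medians by length were -0.03, 0.16, 0.25 and 0.33, so short transcripts had the least lean towards CD4SP. With a correction for transcript length, chosen after seeing the data, S100a4 (1.07, limma adjusted p = 0.00355) and Anxa1 (2.54, limma adjusted p = 0.00369) were still called. S100a10 was then at 0.47 (limma adjusted p = 0.0302), and Anxa6 at -0.88 (limma adjusted p = 0.0404), within the 2-fold limit.

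**Figure D5:**
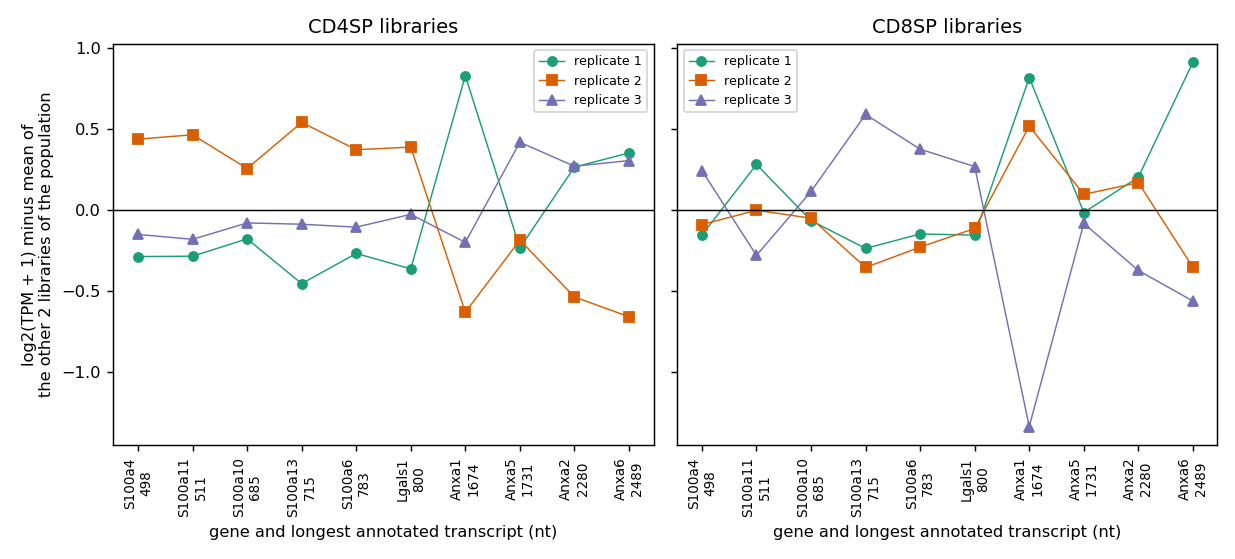
Deviation of each library from the mean of the other 2 libraries of its population, in log2(TPM + 1), for the 10 genes ordered by longest annotated transcript (nt, under each name); lines join the genes of a library and carry no order in time. In CD4SP replicate 2 the 6 genes up to 800 nt lie between 0.26 and 0.54 and the 4 annexin genes between -0.19 and -0.66.

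The genes with the profile most like that of a member over the 6 libraries were sought outside the 3 families, as the smallest root-mean-square (RMS) difference of centred log2 values among 6718 genes. For S100a4 they were Bcl2a1d (0.0741), a BCL2-family survival gene, Igflr1 (0.0996) and Pmaip1 (0.110), which codes for the BH3-only protein NOXA. Bcl2a1d was at 135, 173 and 151 TPM in CD4SP, against 59.3, 59.6 and 70.2 TPM in CD8SP. For Anxa2 they were Mcm3 (0.0368), a subunit of the replicative helicase, Msto1 (0.0445) and Poli (0.0447). For Lgals1 they were Ppp1r2 (0.0480), Asb13 (0.0508) and Tma7 (0.0534). For Anxa6 the nearest were farther off, Mrrf (0.195), Pcid2 (0.217) and Anapc5 (0.219). With 6 libraries and many candidates, close profiles are a description only.

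The libraries carried T cell genes as labelled. Cd3d, Cd3g, Thy1 and Lck were at 713 TPM or more in all 6, Cd4 was at 279 to 331 TPM in CD4SP and at most 0.104 TPM in CD8SP, and Cd8a was at 1038 to 1161 TPM in CD8SP and at most 2.93 TPM in CD4SP. Cd3e was lower, at 34.6 to 67.5 TPM, and Cd8b1 was at 2197 to 2401 TPM in CD8SP and still at 24.3 to 36.0 TPM in CD4SP. The B cell genes Ms4a1 and Pax5, the NK cell genes Ncr1 and Klra8 and the stromal genes Col1a1, Col3a1 and Lum were listed at 0, and erythroid and platelet lists summed to at most 1.11 and 0.285 TPM. The NK cell list summed to 0.682 to 1.82 TPM in CD4SP and to 14.6 to 16.8 TPM in CD8SP, and the stromal list to 2.59 to 6.87 and 1.52 to 3.21 TPM. Between 9971 and 10649 genes reached 1 TPM in a library. TPM keep no depth, so the depth of these libraries is unknown. CD8SP replicates 1 and 2 were closer than any other pair of the same population, with a median absolute log2 difference of 0.0750 over 4884 genes against 0.170 to 0.313, but 23 of these genes differed over 4-fold and they were counted separately.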

How the data were processed

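Polyadenylated RNA of 1000 sorted cells was amplified with a whole-transcriptome kit and sequenced; the authors aligned reads with HISAT2 to mm10 and deposited StringTie TPM, with tool versions not used here. TPM are relative to each library's total and carry no depth, so small values have no counting interval. Of 23420 rows, 9818 were 0 throughout and 27 bore date-like names; 10476 genes that reached 1 TPM in 3 or more of the 6 libraries were tested. Log2(TPM + 1) was fitted in limma 3.58.1 (R 4.3.3) with a mean-variance trend and Benjamini-Hochberg adjustment over all tested genes. The procedure was tested on simulated data. Gene pairs used exact permutation tests over libraries. Positions and lengths came from GENCODE M21, near-identical copies (at least 95% over 200 nt) from blastn 2.17.0 and promoters from RefSeq. Named genes were the 10 members, listed family, partner and context genes that were called or had separate ranges, other listed genes for background, and the 3 nearest profiles of 4 members. The members and lists were chosen with earlier results of these data known. Alternatives covered pseudocounts, filters, scaling, weights, a replicate block, the fold limit and leaving out each library. Some listed genes are not reported here.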

Additional observations from a re-analysis of the deposited data

How the results depend on the processing

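Of the 10 genes, 0 were called higher in CD8SP under any alternative run, and 2 were called higher in CD4SP. The latter count was 1 under median-of-ratios rescaling, which keeps Anxa1 alone, and 5 with the adjusted p alone. Leaving out 1 library gave 2 to 3, the third being Anxa5 without CD4SP replicate 1. Of the other family genes, 1 (Lgals3) passed on adjusted p alone. The count over all genes was 1019, against 488 with a pseudocount of 5, 2183 with the adjusted p alone, 664 with a replicate block and a transcript length correction together, and 752 to 1042 without 1 library. The median log2 difference of all genes moved from 0.28 to 0.00 under median-of-ratios rescaling, to -0.01 under quantile normalization and to -0.02 with the length correction. S100a13 turned to -0.015 under median-of-ratios rescaling. Without 1 library Anxa2 ran from -0.172 (CD8SP replicate 3) to 0.130, turning to 0.130 without CD4SP replicate 2, 0.019 without CD8SP replicate 1, 0.008 without CD8SP replicate 2 and 0.013 with CD8SP replicates 1 and 2 averaged; the cause was not tested. The labels do not say whether same-numbered libraries of the 2 populations are paired. Deviations of same-numbered libraries from their population means correlated at 0.05, -0.02 and 0.09. This cannot decide the question, as such deviations also hold differences between libraries such as those by transcript length. With a replicate block 2 of the 10 genes were called and 997 genes in all. S100a10 lost its adjusted p with the block and the length correction together (0.0748 in limma). Leaving out 1 library gave 0.41 to 0.84 for S100a10 minus Anxa2, 0.68 to 0.77 for S100a4 minus S100a6, -2.27 to -1.53 for S100a11 minus Anxa1 and -0.72 to -0.31 for Anxa6 minus Anxa2. The library weights alternative gave CD4SP replicate 2 the lowest weight, 0.233, against up to 4.59. TPM hold no depth, so no counting error can be given for Anxa1 or for genes listed at 0.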
